A study of Mus musculus with 32 samples.

Results

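The comparison described here set 6 whole bladders of old female mice given dasatinib and quercetin (D+Q) against 5 whole bladders of old female mice given water, 11 of the 32 bladders measured in the study. Members were taken by their treatment label alone. RNA was sequenced from each bladder after depletion of ribosomal RNA, and reads were counted per gene. All 11 mice were C57BL/6 females from an aged colony and were 26 months old when the bladders were taken. The D+Q mice received dasatinib at 5 mg per kg and quercetin at 50 mg per kg per day by oral gavage on 3 consecutive days of each month from 21 months of age. The water mice were gavaged with water on the same schedule. The drugs were given in a Phosal, polyethylene glycol and ethanol vehicle that the water mice did not receive, so drug and vehicle cannot be told apart in D+Q against water. A group of 4 mice gavaged with the vehicle alone, and 6 old mice that were not gavaged, are therefore given beside the main values. According to the study's methods the mice rested for some days after the last gavage, so the values describe bladders after repeated courses and not during drug exposure.

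Dasatinib is an inhibitor of SRC-family and ABL kinases, and quercetin is a plant flavonol that acts on several kinases and antioxidant pathways. The combination is used as a senolytic, a treatment meant to remove senescent cells, which have left the cell cycle and secrete inflammatory factors. The bladder wall holds a urothelium of basal, intermediate and umbrella cells over a connective tissue layer, with smooth muscle outside. In old mice it also gathers lymphoid aggregates rich in B cells and plasma cells. Because each sample was a whole bladder, fewer cells of a type and less RNA per cell cannot be told apart in any value below.

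The D+Q bladders gave totals of 29098617 to 46477640 counts and the water bladders 18697996 to 49470890. A floor of 3 counts corresponded to 0.0609 to 0.160 counts per 1000000 (CPM) in the single bladders, which covers counting error only. Smooth muscle and urothelial genes defined the tissue in every bladder, with Myh11, the smooth muscle myosin heavy chain, at 10080 to 13830 CPM and the umbrella cell uroplakin Upk1a at 1173 to 1615 CPM. In the first principal component of the 11 bladders (23.1% of the variance) D+Q replicate 6 and water replicate 2 stood at opposite ends, so values that turn on them are also given without them. CPM values below were scaled by trimmed mean of M values (TMM) factors over these 11 bladders, and log2 fold changes are D+Q minus water with their standard error (SE) from edgeR.

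No gene passed an adjusted p of 0.05 between D+Q and water bladders in edgeR's quasi-likelihood test (0 of 17161 genes tested, 0.00%). The smallest adjusted p was 0.0904, the median absolute log2 fold change was 0.07 and the median SE 0.08. An unadjusted p under 0.05 was reached by 1342 genes (7.82% of those tested), 794 of them higher (4.63%) and 548 lower (3.19%) after D+Q. The D+Q and water values did not overlap for 170 higher genes (0.991% of those tested) and 50 lower genes (0.291%). DESeq2 on the same counts passed 69 genes, 64 higher and 5 lower, and edgeR's likelihood ratio test passed 27, with 26 higher and 1 lower. The balance of higher and lower genes differed on the deposited length-normalized values, where both the values and the test changed: with limma and a pseudocount of 1, 433 genes were higher and 971 lower at an unadjusted p under 0.05, with a median over all genes of -0.03 in place of 0. With D+Q set against vehicle, 0 of 17267 genes passed in edgeR and 722 (4.18%) had an unadjusted p under 0.05, and with vehicle against water 0 of 17294 passed and 322 (1.86%) did so, 169 higher (0.977%) and 153 lower (0.885%). The D+Q and vehicle difference had 468 genes higher (2.71%) and 254 lower (1.47%) at that threshold. DESeq2 passed 11 genes for D+Q against vehicle and 0 for vehicle against water. These comparisons share their D+Q, vehicle or water bladders with each other.

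The higher genes with the smallest unadjusted p combined small to moderate differences with tight groups. Lypla1, a depalmitoylating thioesterase (chromosome 1, 4807788 to 4848410 of mm10), ranged from 73.9 to 83.3 CPM in the D+Q bladders with a median of 78.3. In the 5 water bladders it was 63.0, 61.6, 69.2, 63.1 and 62.8 CPM. The groups did not overlap, and the log2 fold change was 0.30 ± 0.04 (SE, adjusted p = 0.0904, edgeR). Gt(ROSA)26Sor, the non-coding RNA of the Rosa26 locus (chromosome 6, 113067428 to 113077333), lay between 9.26 and 11.7 CPM with a median of 9.46 after D+Q. Its water values were 5.18, 4.26, 6.09, 6.65 and 5.92 CPM, again without overlap, for a log2 fold change of 0.81 ± 0.12 (adjusted p = 0.0904, edgeR). This transcript shares exon sequence with Thumpd3 on the other strand, so the reads of the 2 genes may be mixed if counting did not use strand.

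The other higher genes of this kind were Trove2, the RNA-binding Ro60 protein, Sh3bgrl, a small thioredoxin-like protein, Matr3, a nuclear matrix protein, Dram2, a lysosomal protein of autophagy, Vma21, an assembly factor of the lysosomal proton pump, and 3 mitochondrial genes described below. Trove2 gave 29.7 to 35.3 CPM after D+Q and 22.9 to 26.9 CPM after water, with a log2 fold change of 0.38 ± 0.06. Sh3bgrl gave 215 to 270 CPM after D+Q and 148 to 192 CPM after water, a difference of 0.46 ± 0.08. For Matr3 (73.1 to 83.0 against 53.9 to 65.7 CPM), Dram2 (65.4 to 72.4 against 53.9 to 60.3 CPM) and Vma21 (30.5 to 35.6 against 23.3 to 29.6 CPM) the log2 fold changes were 0.35, 0.24 and 0.36. Each of the 10 had D+Q values above all 5 water values and an adjusted p of 0.0904 to 0.103 in edgeR. DESeq2 passed all 10, with adjusted p between 2.04e-08 and 0.000234. Against vehicle all 10 were also higher after D+Q, from 0.23 for Lypla1 to 1.36 for mt-Atp8, each with an adjusted p of 0.994 (edgeR). That comparison shares its D+Q bladders, for whose high values the genes had been picked.

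**Figure D1:**
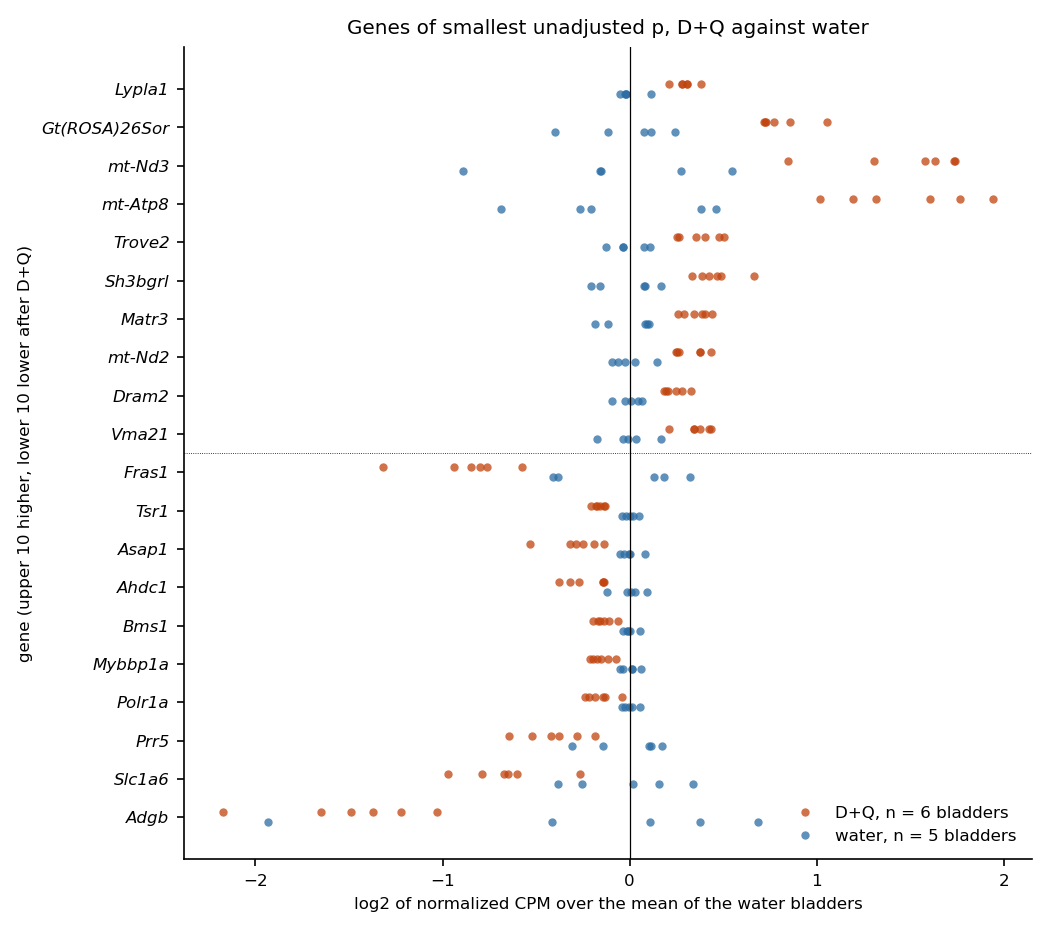
Values by bladder for the 10 higher and 10 lower genes of smallest unadjusted p, as log2 of normalized CPM over the mean of the 5 water bladders (horizontal axis), with 1 point per bladder. In the upper 10 genes all D+Q points lie to the right of all water points, while Prr5, Slc1a6 and Adgb at the bottom overlap.

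These 10 genes also differed between the water bladders and the bladders of old mice that were not gavaged. In CPM of all counts, without TMM factors, Lypla1 was 74.4 to 87.7 in the 6 bladders that were not gavaged (median 79.3), 61.1 to 69.3 in the 5 water bladders (median 63.1), 58.2 to 73.4 in the 4 vehicle bladders (median 66.9) and 72.9 to 83.5 in the 6 D+Q bladders (median 78.3). The D+Q and untreated bladders thus covered nearly the same range, every water bladder lay below both, and the vehicle bladders reached into the D+Q range. Gt(ROSA)26Sor had medians of 8.89, 5.77, 5.59 and 9.45 in the untreated, water, vehicle and D+Q bladders, and Sh3bgrl had medians of 244, 176, 181 and 231. With water against untreated, a comparison that shares its water bladders with the main one, all 10 genes were lower after water with an adjusted p between 0.0140 and 0.0430 (edgeR, 173 of 17250 genes passed, 1.0%). The 10 genes had been picked for water values below the D+Q values. The pick itself favored low water values here, so their count is not independent support. At an unadjusted p under 0.05 there were 1357 genes higher (7.87%) and 1403 lower (8.13%) in that comparison. With D+Q against untreated 0 of 17037 genes passed in edgeR (0.00%), with 1063 higher (6.24%) and 1137 lower (6.67%) at an unadjusted p under 0.05. The log2 fold change of Lypla1 was -0.31 in that comparison and -0.02 with D+Q against untreated. For Trove2 the same values were -0.41 and -0.03, and for Vma21 they were -0.33 and 0.03.

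All 13 protein-coding genes of the mitochondrial genome had a positive log2 fold change, against 50.0% of all genes tested. This genome encodes subunits of respiratory complex I (the Nd genes), complex III (Cytb), complex IV (the Co genes) and ATP synthase (the Atp genes), and the list was drawn up after values had been seen. An unadjusted p under 0.05 was reached by 10 of the 13 (4.63% of all genes) and the groups did not overlap for 5 (0.991% of all genes), with a median log2 fold change of 0.27 beside 0 over all genes. Without water replicate 1, 12 of the 13 were above 0 and 7 had an unadjusted p under 0.05. The 13 genes took 2.71% to 2.94% of all counts in the D+Q bladders with a median of 2.84%. They took 2.12%, 2.56%, 2.82%, 2.68% and 2.59% in water replicates 1, 2, 3, 4 and 6, of which replicate 1 was also the shallowest library. The means were 2.82% ± 0.097 (SD, n = 6) and 2.55% ± 0.26 (SD, n = 5), a difference of 0.27 percentage points (exact permutation test, two-sided p = 0.0217, adjusted over 3 library shares p = 0.0650). Without water replicate 1 the difference was 0.16 points (exact permutation p = 0.0476), a move of over 1.5 times. The share was 2.74% to 3.04% in the untreated old bladders and 2.12% to 2.76% in the vehicle bladders, so the D+Q range overlapped the untreated range. Set against untreated bladders, water bladders had 12 of the 13 genes lower, with a median of -0.29 (edgeR). Of these 9 had an unadjusted p under 0.05 (8.13% of all genes) and 4 passed the adjusted test (1.0% of all genes passed). D+Q bladders set against untreated had 7 genes higher and 6 lower, with a median of 0.0003. The list was drawn up from values that include these water bladders, which favors low water values.

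The size of the difference varied strongly among the 13 genes. A group of 6 (mt-Atp8, mt-Nd4l, mt-Nd3, mt-Atp6, mt-Co3 and mt-Co2) stood at 2.50 to 101 CPM per kilobase over the 11 bladders, and the other 7 at 1058 to 7234 CPM per kilobase. The nuclear genome of the mouse holds a near-identical copy of a stretch of mitochondrial DNA, and counts of genes in such a stretch depend on how reads with several matches were treated, so the values of the 6 low genes are uncertain. Their log2 fold changes ran from 0.27 to 1.53 with a median of 0.59. The 7 abundant genes ran from 0.04 to 0.33 with a median of 0.16, and 4 of them had an unadjusted p under 0.05. The abundant genes thus had the smaller values, in a split made after the values were seen.

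mt-Nd2, a complex I subunit (mitochondrial chromosome, 3914 to 4951), was the abundant gene with the smallest p. It lay between 2204 and 2509 CPM after D+Q with a median of 2314 CPM, and at 1733, 1772, 2049, 1820 and 1893 CPM after water. Every D+Q bladder exceeded every water bladder, and the log2 fold change was 0.33 ± 0.06 (adjusted p = 0.103, edgeR). mt-Nd6, another complex I subunit, which is read from the opposite strand, showed no overlap either, with 929 to 1105 CPM after D+Q against 722 to 882 CPM after water (log2 fold change 0.27 ± 0.06, unadjusted p = 0.000823). mt-Cytb, at 4869 to 5663 CPM after D+Q and 4492 to 5644 CPM after water, and mt-Co1, the catalytic subunit of complex IV, at 10570 to 11180 against 7648 to 11050 CPM, overlapped between the groups. Among the low genes, mt-Nd3 (9459 to 9806) gave 9.79 to 18.2 CPM after D+Q and 2.94, 4.88, 7.94, 4.89 and 6.57 CPM after water, a log2 fold change of 1.49 ± 0.22 (adjusted p = 0.0917, edgeR). mt-Atp8 (7766 to 7969), which shares bases with mt-Atp6, gave 1.66 to 3.15 CPM against 0.509 to 1.13 CPM.

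Against vehicle bladders the 13 genes were again all higher after D+Q, against 48.8% of all genes tested there, with a median of 0.30, and vehicle against water had 5 higher and 8 lower with a median of -0.01. Genes of the nuclear genome for the same complexes, 46 on a list also drawn up after values had been seen, were near the middle of all genes. They had a median log2 fold change of 0.02, none at an unadjusted p under 0.05, and 39 of 46 above 0 in edgeR but 16 of 46 on the length-normalized values. The nuclear genes also had 17 of 46 above 0 in edgeR without D+Q replicate 6, so their direction was not stable. The 13 mitochondrial genes were above 0 with both sets of values. Without D+Q replicate 6 and water replicate 2 together, the mitochondrial median was 0.28.

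**Figure D2:**
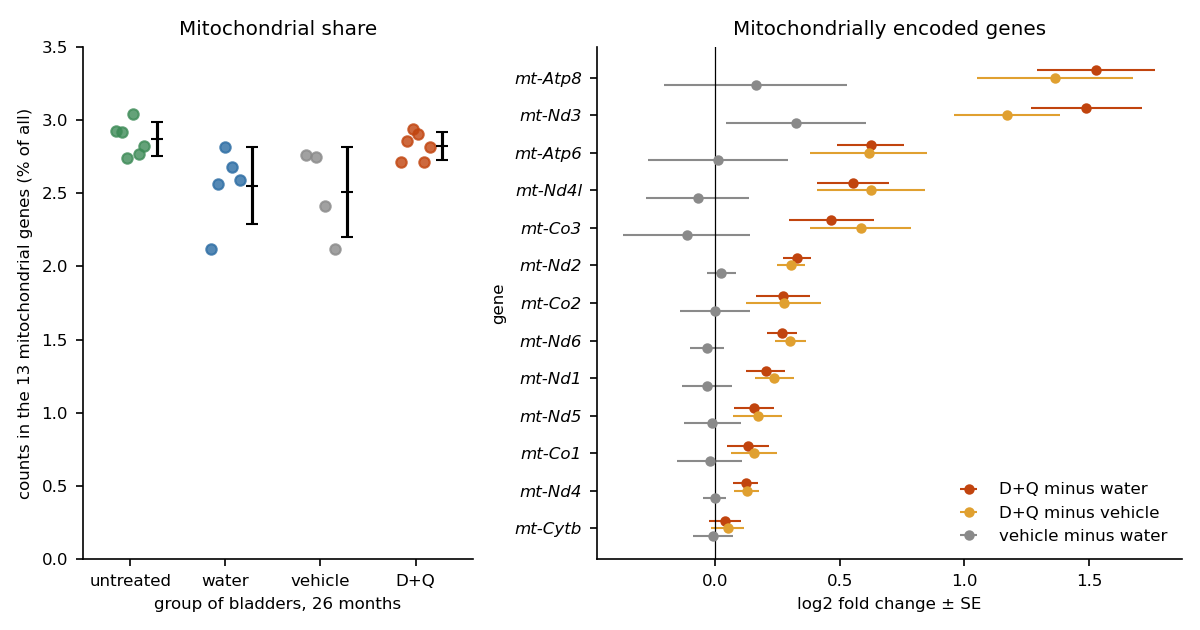
Left, share of all counts in the 13 mitochondrially encoded genes, in percent, with 1 point per bladder and the mean ± SD beside the points, for the 4 groups of old mice. Right, log2 fold change ± SE of each gene in 3 comparisons that share bladders, with D+Q minus water from 0.04 for mt-Cytb to 1.53 for mt-Atp8 and vehicle minus water near 0 for most genes.

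Hemoglobin and other red blood cell genes were the list with the largest positive values. All 7 members tested were higher after D+Q with an unadjusted p under 0.05 (4.63% of all genes). Their groups did not overlap for 4 (0.991% of all genes), and the median log2 fold change was 2.85. Summed over the list, the D+Q bladders held 404, 325, 900, 227, 336 and 3531 CPM in replicates 1 to 6, and the water bladders 198, 153, 126, 160 and 173 CPM. D+Q replicate 6 stood far above the rest and replicate 3 next, and the lowest D+Q bladder still exceeded the highest water bladder. Hbb-bs, an adult beta-globin, gave 135 to 2068 CPM with a median of 222 CPM after D+Q and 74.9 to 113 CPM after water. Its log2 fold change was 2.55 ± 0.67 (unadjusted p = 0.00235, adjusted p = 0.374, edgeR). Alas2, the heme synthesis enzyme of red cell precursors, gave 7.06 to 182 CPM against 4.03 to 6.62 CPM. Slc4a1, the red cell anion exchanger, was at 0 counts in at least 1 water bladder and had a log2 fold change of 3.75 ± 0.997. Without D+Q replicate 6 the list's median was 1.46, with all 7 still above 0, and on the length-normalized values it was 1.70. In CPM of all counts the list summed to 73.5 to 589 in the untreated bladders and 101 to 165 in the vehicle bladders, so untreated bladders reached into the D+Q range.

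B cell genes were mostly lower after D+Q but did not pass the test. Of the 19 genes on the list 17 had a negative log2 fold change (50.0% of all genes), 6 had an unadjusted p under 0.05 (3.19% of all genes), and the median was -0.95. The whole list summed to 1087 to 5429 CPM with a median of 4600 CPM after D+Q and to 2024 to 4699 CPM with a median of 2803 CPM after water, a sum that is made up mostly of Ighm and is not lower after D+Q. The 17 members other than the immunoglobulin genes Ighm and Ighd summed to 235, 181, 114, 261, 177 and 93.8 CPM in D+Q replicates 1 to 6. The water bladders held 266, 741, 96.9, 529 and 132 CPM in replicates 1, 2, 3, 4 and 6. Water replicates 2 and 4 thus stood well above the other water bladders, while water replicates 3 and 6 lay inside the D+Q range. Cxcr5, the receptor that draws B cells into follicles, gave 1.11 to 8.15 CPM with a median of 4.37 CPM after D+Q and 7.11, 29.6, 2.38, 30.4 and 2.93 CPM after water (log2 fold change -1.72 ± 0.68, unadjusted p = 0.0249, adjusted p = 0.584, edgeR). Its ligand Cxcl13, made by stromal cells of B cell follicles, gave 7.09 to 18.0 CPM with a median of 8.81 CPM after D+Q and 16.4, 44.0, 6.86, 36.9 and 6.68 CPM after water (-1.14 ± 0.47, unadjusted p = 0.0305, adjusted p = 0.599, edgeR). High values in water replicates 2 and 4 recurred in Fcmr, the IgM Fc receptor, at 29.3 and 29.5 CPM, and in Blk, a SRC-family kinase of B cells, at 47.1 and 26.9 CPM. Spib and Pax5, transcription factors of the B lineage, had log2 fold changes of -1.64 ± 0.61 and -1.37 ± 0.63.

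When each bladder was left out in turn, the B cell members lower at an unadjusted p under 0.05 numbered 0 to 14. The B cell median was -0.48 without water replicate 2, with 0 members at an unadjusted p under 0.05, and -0.31 without both water replicate 2 and D+Q replicate 6, again with 0 lower at an unadjusted p under 0.05. Against vehicle the median was -0.83 with 15 of 19 lower (51.2% of all genes), and vehicle against water gave -0.12. The same list had a median of 4.11 between untreated old and middle-aged bladders (10 months), where 17 of 19 genes passed higher (24.0% of all genes passed in either direction). In the untreated old bladders the 17 genes without Ighm and Ighd summed to 174 to 428 CPM of all counts, and Cxcr5 ranged there from 5.59 to 12.9 CPM, between the low and the high water bladders.

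Plasma cell genes mostly had the opposite sign. Of the 21 members 17 had a positive log2 fold change (50.0% of all genes), 2 with an unadjusted p under 0.05 (4.63% of all genes), and the median was 0.10. The median was 0.17 with 6 such members without D+Q replicate 6, 0.19 with 2 without water replicate 2, and 0.35 with 9 without both. Igha, the IgA heavy chain, gave 42.3 to 111 CPM after D+Q and 15.06, 93.97, 31.43, 43.7 and 15 CPM after water (log2 fold change 1.06 ± 0.43, unadjusted p = 0.0289, adjusted p = 0.594, edgeR). Jchain, which joins IgA and IgM units, gave 71.7 to 373 CPM against 101 to 189 CPM. Ighm, which B cells and plasma cells both express, had a log2 fold change of 0.45 ± 0.36. The immunoglobulin variable segments numbered 131, 89 higher and 42 lower, and reads of such near-identical segments can be split between them. Against vehicle 15 of 21 plasma cell genes were lower, with a median of -0.06, so the positive direction was not seen with that reference.

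**Figure D3:**
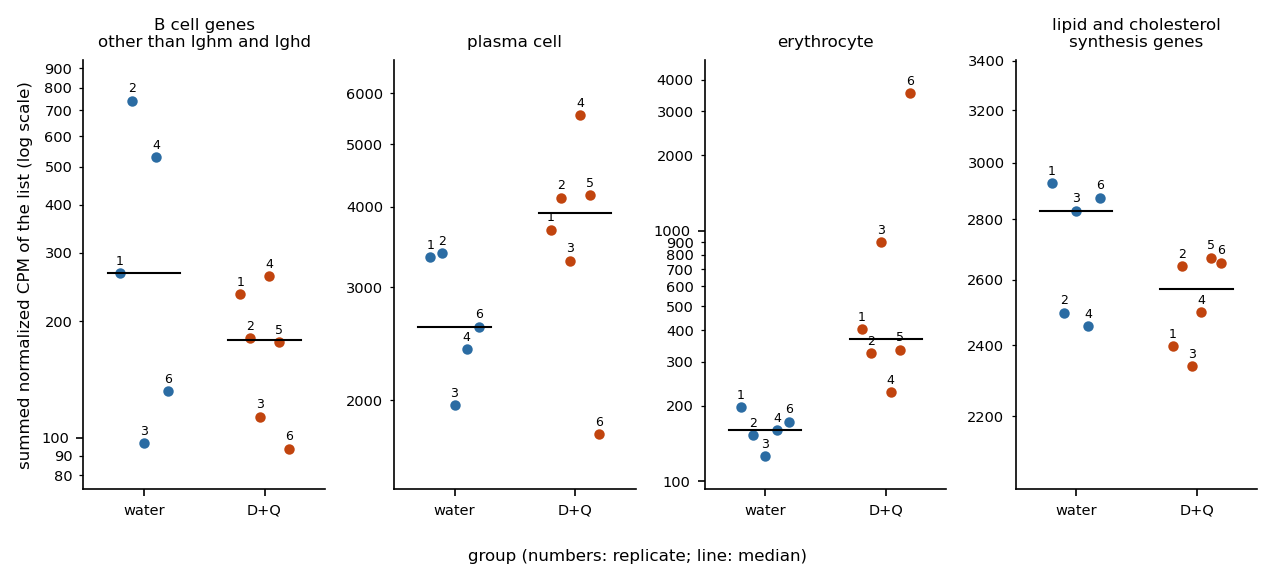
Summed normalized CPM of 4 gene lists on log axes, with 1 numbered point per bladder and a line at each group's median. D+Q replicate 6 at 3531 CPM leads the erythrocyte panel, and water replicates 2 and 4 at 741 and 529 CPM lead the panel of B cell genes other than Ighm and Ighd.

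Other immune lists had medians on both sides of 0, and several changed with single bladders. Over all genes tested 50.0% were lower, with 3.19% lower and 4.63% higher at an unadjusted p under 0.05. T cell genes were lower in 17 of 25 with a median of -0.11, 1 at an unadjusted p under 0.05 (Ctla4, an inhibitory receptor, -1.12 ± 0.48). Genes of dendritic cells and MHC class II were lower in 16 of 18 with a median of -0.18, among them H2-Ob at -0.92 ± 0.44 and Ccr7 at -0.59 ± 0.29. Interferon-stimulated genes were lower in 27 of 36 with a median of -0.09, and 4 had an unadjusted p under 0.05, among them Stat2, a transducer of interferon signals, at -0.20 ± 0.07 and Xaf1 at -0.22 ± 0.09. MHC class I and immunoproteasome genes were lower in 15 of 17 with a median of -0.05, and B2m was at 0.06 ± 0.06. Without D+Q replicate 6 and water replicate 2 together, the T cell median turned to 0.24 with 20 of 25 higher, the MHC class II median moved to -0.02, the interferon median to -0.04 and the MHC class I median to -0.003. Without water replicate 2 alone the T cell median was 0.10 with 18 of 25 higher. The interferon median stayed below 0 whichever bladder was left out (-0.14 to -0.05). Lymphoid chemokines and lymphotoxins had a median of -0.08 (10 of 15 lower). NK genes had a median of 0.03 (9 of 15 higher, and 0.25 without both bladders), macrophage genes -0.02 (15 of 24 lower, Cd68 at -0.11 ± 0.04), complement genes -0.03 (15 of 22 lower) and mast cell genes 0.04 (6 of 11 higher, Cd200r3 at 0.15 ± 0.06). Of 7 granulocyte genes tested 4 were higher, with S100a8 and S100a9, subunits of calprotectin, at 1.62 ± 0.58 and 1.17 ± 0.53 but at most 1.46 CPM in any bladder.

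The kinases that dasatinib inhibits were near the middle of all genes at the RNA level. Of 23 on the list 15 were lower (50.0% of all genes), 4 with an unadjusted p under 0.05 (3.19% of all genes), and the median was -0.04. The 4 became 1 without water replicate 2, and 1 to 5 over all bladders left out in turn. Among the 4 were Blk at -1.33 ± 0.47, Btk, which carries B cell receptor signals, at -0.61 ± 0.27, and Csk, which inhibits SRC kinases, at -0.16 ± 0.07. Blk and Btk are blood cell kinases, and the B cell list above was high in water replicates 2 and 4. The part of B cells in these values was not tested. Src itself gave 144 to 164 CPM after D+Q and 141 to 164 CPM after water, a log2 fold change of 0.01 ± 0.05. Kit, Pdgfra, Pdgfrb and Abl1 were at 0.07, 0.08, -0.01 and -0.02. Syk, a kinase downstream of the B cell receptor, gave 34.2 to 69.7 CPM with a median of 48.1 CPM against 64.5, 196, 39.9, 138 and 45.4 CPM (-0.96 ± 0.38, unadjusted p = 0.0251, edgeR), and Pik3cd, the leukocyte PI3 kinase subunit, 28.4 to 45.9 CPM against 33.0 to 66.0 CPM (-0.36 ± 0.18). Water replicates 2 and 4 were again the highest for both.

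Genes of cell-cycle arrest and senescence lay near the middle of all genes, with 12 of 19 lower (50.0% of all genes) and a median of -0.02. At an unadjusted p under 0.05, 1 was higher (4.63% of all genes) and 0 were lower (3.19%). Cdkn2a, which encodes the arrest proteins p16 and p19, gave 1.09, 1.21, 1.34, 1.40, 1.20 and 2.16 CPM in D+Q replicates 1 to 6. In the water bladders it was 2.03, 1.85, 1.87, 1.30 and 1.38 CPM. D+Q replicate 6 was the highest of all 11 bladders, and the groups overlapped (log2 fold change -0.25 ± 0.20, unadjusted p = 0.236, adjusted p = 0.806, edgeR). In CPM of all counts Cdkn2a ranged from 0.878 to 1.48 in the untreated old bladders, below the median water bladder at 1.87. Cdkn2a was at 0.42 with D+Q against untreated (unadjusted p = 0.0401, adjusted p = 0.368, edgeR). It was at 0.67 with water against untreated (unadjusted p = 0.00252, adjusted p = 0.106, edgeR). Bmi1, a polycomb protein that represses the Cdkn2a locus, was 37.5 to 43.0 CPM after D+Q and 33.7 to 38.5 CPM after water (0.18 ± 0.05, unadjusted p = 0.00272, adjusted p = 0.374, edgeR). Bmi1 was at -0.05 with D+Q against untreated (adjusted p = 0.560, edgeR) and at -0.23 with water against untreated (adjusted p = 0.0164, edgeR). It had been picked from its list for its difference from these same water bladders, which favors a low water value. Of 32 secreted factors of senescent cells 20 were lower, with a median of -0.07. Cxcl12, a stromal chemokine, was 351 to 411 CPM against 288 to 369 CPM (0.23 ± 0.07), and Il10, an anti-inflammatory cytokine, 0.192 to 0.727 CPM against 0.267 to 1.88 CPM (-0.97 ± 0.44). The list of senescent-cell survival genes, which include targets of senolytics, also holds genes that promote cell death, such as Bax and Bid. Of its members 16 of 21 were lower with a median of -0.05, a count that mixes the 2 kinds. Bid, which promotes cell death, was at -0.21 ± 0.06 and Bcl2, an inhibitor of cell death, at -0.18 ± 0.09.

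Targets of the pathways that quercetin touches lay near 0 or had wide spread. NRF2 antioxidant genes had a median of 0.01 with 16 of 27 higher (9 of 27 on the length-normalized values and 5 of 27 without both D+Q replicate 6 and water replicate 2), and 0 at an unadjusted p under 0.05, and Nfe2l2, which encodes NRF2, was at -0.01 ± 0.07. Aryl hydrocarbon receptor genes had a median of -0.11 with 8 of 11 lower, and Cyp1a1, the receptor's main target, gave 18.1 to 71.5 CPM against 22.6 to 135 CPM. With D+Q against vehicle that list was at 0.16 and with vehicle against water at -0.25. Heat shock genes had a median of -0.04 with 14 of 18 lower, and Hspa1a was at -0.01 ± 0.18.

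Cholesterol and fatty acid synthesis genes were lower in 21 of 21 (50.0% of all genes), with 6 at an unadjusted p under 0.05 (3.19% of all genes) and a median of -0.10. The 6 became 0 without water replicate 1, and ranged from 0 to 7 over all bladders left out in turn, with 19 to 21 genes lower. The sterol-sensing factor SREBP2 switches on most of these genes when cell cholesterol is low. Cyp51, which demethylates lanosterol, gave 34.4 to 45.4 CPM with a median of 37.9 CPM after D+Q and 51.7, 38.3, 40.2, 47.3 and 51.4 CPM after water (-0.22 ± 0.09, unadjusted p = 0.0341, adjusted p = 0.615, edgeR). Srebf2, which encodes SREBP2, gave 192 to 225 CPM against 203 to 245 CPM (-0.13 ± 0.05). The groups overlapped for every gene of the list. With vehicle against water 18 of 21 were lower (49.4% of all genes) with a median of -0.18, 6 at an unadjusted p under 0.05 (0.885% of all genes in that comparison). With D+Q against vehicle 14 of 21 were higher (48.8% of all genes) with a median of 0.06. The vehicle bladders were split, with list sums of 2332 and 2426 CPM of all counts in replicates 1 and 2 and 3194 and 2760 in replicates 4 and 6, against 2447 to 2930 in the water bladders. The untreated bladders summed to 2536 to 2617 and the D+Q bladders to 2336 to 2667. With water against untreated 18 of 21 were higher (50.2% of all genes) with a median of 0.17. At an unadjusted p under 0.05, 11 were higher (7.87% of all genes) and 1 lower (8.13%) there. With D+Q against untreated 14 of 21 were higher with a median of 0.07.

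Ribosome assembly factors, a list drawn up after the top genes had been seen, were lower in 52 of 57 (50.0% of all genes), with 15 at an unadjusted p under 0.05 (3.19% of all genes), 8 without overlap (0.291% of all genes) and a median of -0.07. Tsr1, which matures the small ribosomal subunit, gave 33.7 to 35.4 CPM with a median of 34.6 CPM after D+Q and 39.2, 38.2, 38.8, 37.7 and 40.1 CPM after water (-0.16 ± 0.03, unadjusted p = 0.000374, adjusted p = 0.279, edgeR). Polr1a, the large subunit of RNA polymerase I, gave 41.2 to 47.2 CPM against 47.3 to 50.6 CPM (-0.16 ± 0.04), Bms1 49.3 to 54.1 against 54.9 to 58.5 CPM (-0.14 ± 0.03), and Mybbp1a 121 to 134 against 136 to 147 CPM (-0.15 ± 0.04). Nat10, an RNA acetyltransferase, Ftsj3, Utp20 and Xrn2 were likewise lower without overlap, at -0.13, -0.16, -0.21 and -0.11. The genes on which the list was built are among its members, so their count adds nothing independent. With vehicle against water 48 of 57 were lower (49.4% of all genes) with a median of -0.04, and with D+Q against vehicle 42 of 57 were lower (51.2% of all genes) with a median of -0.03. With water against untreated 48 of 57 were higher (50.2% of all genes), 16 at an unadjusted p under 0.05 (7.87% of all genes), with a median of 0.05. The list was built on genes that were higher in these water bladders than after D+Q, which favors this sign. With D+Q against untreated 39 of 57 were lower with a median of -0.03. In CPM of all counts the list summed to 3036 to 3207 in the untreated bladders. The D+Q bladders at 3046 to 3141 lay inside that range, and the water bladders gave 3196 to 3316. Genes of the cytoplasmic ribosomal proteins themselves had a median of -0.03 with 59 of 81 lower and 0 at an unadjusted p under 0.05.

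Outside that list the lower genes of smallest p were Fras1, Asap1, Ahdc1, Prr5, Slc1a6 and Adgb. Fras1, which anchors epithelia to the basement membrane (chromosome 5, 96373955 to 96784728), gave 12.2 to 20.4 CPM with a median of 17.2 CPM after D+Q and 22.9, 34.6, 33.3, 38.0 and 23.3 CPM after water. No D+Q bladder reached the lowest water bladder, and the log2 fold change was -0.86 ± 0.15 (adjusted p = 0.120, edgeR). It was also -0.83 with D+Q against vehicle and -0.57 with D+Q against untreated (adjusted p = 0.278, edgeR), and in CPM of all counts the lowest untreated bladder at 19.0 lay below the highest D+Q bladder at 20.6. Asap1, which acts on Arf GTPases, gave 54.8 to 72.3 CPM against 76.6 to 83.9 CPM (-0.28 ± 0.06). Ahdc1, a DNA-binding protein, gave 41.5 to 49.2 against 49.6 to 57.7 CPM (-0.23 ± 0.06). Prr5, a component of the mTORC2 kinase complex, was at -0.40 ± 0.10, and Slc1a6, a glutamate transporter, at -0.64 ± 0.17 with at most 2.26 CPM. Adgb, androglobin, was at -1.41 ± 0.38 with at most 1.39 CPM.

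Clock genes were lower after D+Q than after water in 14 of 19 (50.0% of all genes) with a median of -0.10. With water against untreated 14 of 19 were higher (50.2% of all genes) with a median of 0.27. At an unadjusted p under 0.05, 10 were higher (7.87% of all genes) and 4 lower (8.13%) in that comparison. With D+Q against untreated 14 of 19 were higher with a median of 0.12. In CPM of all counts the list summed to 1380 to 1843 in untreated, 1845 to 2065 in water and 1583 to 2028 in D+Q bladders. Ciart, a repressor of the clock activators, gave 12.7 to 26.6 CPM with a median of 15.1 CPM after D+Q and 27.99, 18.35, 20.89, 28.46 and 25.66 CPM after water (-0.53 ± 0.18, unadjusted p = 0.0135, adjusted p = 0.547, edgeR). Per1, a period gene, gave 93.8 to 157 CPM with a median of 121 CPM against 133, 139, 135, 231 and 217 CPM (-0.45 ± 0.17, unadjusted p = 0.0200, adjusted p = 0.568, edgeR). Npas2, an activator of the clock, was at 0.21 ± 0.09, and Arntl, its partner, at 0.04 ± 0.20. Against vehicle Ciart was at -0.08 and Per1 at -0.02, while with vehicle against water they were at -0.44 and -0.43. Both genes carry the E-box CACGTG, the site of the CLOCK and BMAL1 activators, in the window from 250 bases before to 50 bases after their RefSeq start (GRCm38.p6), as did 5 of the 16 clock genes with an entry and 7.15% of 32851 promoters, the motif being its own reverse complement. The 2 windows are shown because these members lead the list, with E-boxes in capitals.
Ciart, chr3:95882179-95882478, minus strand: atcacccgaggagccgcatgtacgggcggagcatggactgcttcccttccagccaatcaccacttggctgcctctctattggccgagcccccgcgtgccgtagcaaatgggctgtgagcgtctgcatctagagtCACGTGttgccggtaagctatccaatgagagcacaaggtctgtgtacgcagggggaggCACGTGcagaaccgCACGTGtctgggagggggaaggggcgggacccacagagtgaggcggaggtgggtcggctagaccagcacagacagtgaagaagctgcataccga
Per1, chr11:69098699-69098998, plus strand: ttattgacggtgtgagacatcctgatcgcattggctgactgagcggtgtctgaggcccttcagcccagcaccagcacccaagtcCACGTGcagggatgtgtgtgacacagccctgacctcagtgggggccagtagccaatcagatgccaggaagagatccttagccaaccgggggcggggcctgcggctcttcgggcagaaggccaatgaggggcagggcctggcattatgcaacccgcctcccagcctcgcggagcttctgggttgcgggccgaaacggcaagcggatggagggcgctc
Ciart held 3 matches and Per1 1 match. A match is a description of the letters only.

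Lists for the structural cells of the bladder wall had medians near 0. Umbrella cell genes had a median of -0.01, with 11 of 20 lower (50.0% of all genes) and 1 higher at an unadjusted p under 0.05 (4.63% of all genes). The medians were 0 for basal urothelial genes (8 of 16 higher), 0 for smooth muscle genes (11 of 22 higher) and -0.01 for fibroblast and matrix genes (20 of 31 lower). Upk1a was at 0.04 ± 0.08, Krt5, the basal keratin, at 0.03 ± 0.13 and Myh11 at -0.06 ± 0.09. Krt14, a keratin of basal cells, was at -1.48 ± 0.59 but at most 1.21 CPM in every bladder except water replicate 4 at 4.89 CPM. Dcn, the matrix proteoglycan decorin, gave 2246 to 2500 CPM after D+Q and 1974 to 2224 CPM after water without overlap (0.19 ± 0.05, unadjusted p = 0.00170, adjusted p = 0.364, edgeR). Col6a3, a collagen VI chain, was at -0.19 ± 0.06 and Col1a1 at -0.04 ± 0.06. Endothelial genes had a median of 0.06 (15 of 20 higher), Schwann cell and neuron genes -0.09 (9 of 15 lower), skeletal muscle genes -0.06 (10 of 17 lower) and adipocyte genes 0.12 (13 of 17 higher, with Adipoq between 0.415 and 16.9 CPM after D+Q). On the length-normalized values the smooth muscle list stood at 3 higher and 19 lower, and the umbrella cell list at 4 higher and 16 lower, with both the values and the test changed. In edgeR the smooth muscle list also had 19 of 22 lower without water replicate 2, and the umbrella cell list 15 of 20 lower without water replicate 2 and 18 of 20 without D+Q replicate 6, so the balance of these lists was not stable. With D+Q against vehicle 21 of 22 smooth muscle genes were lower, with a median of -0.08, and with vehicle against water 22 of 22 were higher, with a median of 0.07.

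Immediate early genes, which cells switch on soon after a stimulus, varied between D+Q bladders. They had a median of 0 with 12 of 22 higher. With D+Q against vehicle 22 of 22 were higher (48.8% of all genes) with a median of 0.26, and with vehicle against water 18 of 22 were lower (49.4% of all genes) with a median of -0.14. Dusp1, a phosphatase of this class, gave 96.2, 32.4, 21.9, 94.5, 29.5 and 56.7 CPM in D+Q replicates 1 to 6 and 16.8 to 33.8 CPM after water (1.07 ± 0.38, unadjusted p = 0.0144, adjusted p = 0.554, edgeR), and Fos gave 13.2 to 54.0 CPM against 10.3 to 23.9 CPM (0.86 ± 0.40). D+Q replicates 1, 4 and 6 were the high bladders for both. Glucocorticoid response genes were even, 9 of 18 higher with a median of 0.01, with Zbtb16 at 0.74 ± 0.25 against water, -0.09 against vehicle and 0.83 with vehicle against water. Cell cycle genes had a median of -0.03 (14 of 24 lower), and Mki67, a marker of dividing cells, was 10.4 to 19.1 CPM against 7.54 to 28.4 CPM. The cell cycle median turned to 0.14 with 18 of 24 higher when water replicate 2 was left out.

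**Figure D4:**
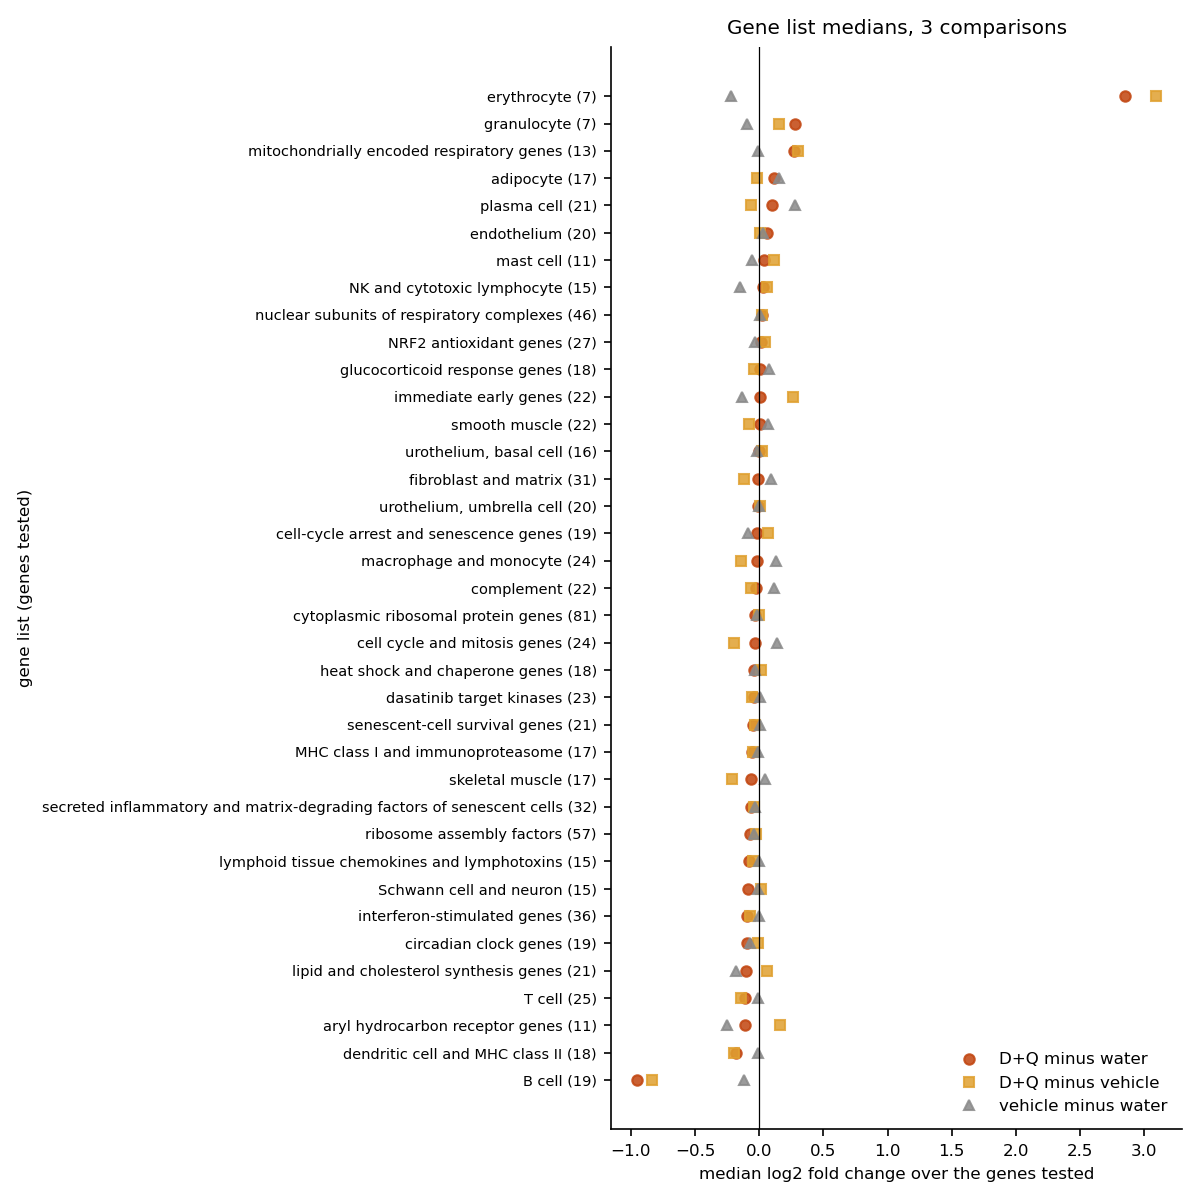
Median log2 fold change over the tested genes of each list (number of genes in parentheses) for D+Q minus water, D+Q minus vehicle and vehicle minus water, which share bladders. Only the erythrocyte list at 2.85 and the B cell list at -0.95 have a D+Q minus water median beyond 0.3 in either direction among the 37 lists.

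Genes that changed with age were then examined in the D+Q and water bladders. The age genes were called between 6 untreated old and 5 middle-aged bladders, none of which enters D+Q against water. Of 17156 genes tested with age 4110 passed (24.0%), 2231 higher and 1879 lower in old bladders. Of the 2223 raised genes tested here, 1409 were lower after D+Q than after water (63.4%), against 48.7% of the 13063 genes that passed in neither direction. Their median log2 fold change was -0.05 beside 0 for those genes, and 0 passed the adjusted test. At an unadjusted p under 0.05, 151 were lower (3.19% of all genes) and 80 higher (4.63% of all genes). The 13063 other genes had 361 lower and 656 higher at that threshold. Among the raised genes outside the immune lists and immunoglobulin genes, 1259 of 1970 were lower (63.9%). The lists do not name every gene of immune cells, Syk being in none of them, so the genes outside can still include such genes. The part of immune cells in this shift was not tested. For genes raised more than 1.5-fold the count was 782 of 1168 (67.0%) with a median of -0.11.

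The shift of the raised genes was smaller without water replicate 2 than without D+Q replicate 6, and was not seen without both. Without water replicate 2 the median was -0.01 with 1191 of 2223 lower, and without D+Q replicate 6 it was -0.04 with 1331 lower. Without both bladders it was 0.01 with 1055 lower. The 2 bladders were picked as the opposite ends of the first component of these data. Leaving out both moves the group means toward and past each other along it, so that their order changes. Against vehicle the raised genes had a median of -0.07, and with vehicle against water 0.01. The 1875 genes lowered with age had a median of 0.01 with 1070 higher after D+Q, which turned to -0.02 with 688 higher on the length-normalized values and to -0.01 without those 2 bladders. Genes are not independent replicates, and the counts describe these 11 bladders.

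**Figure D5:**
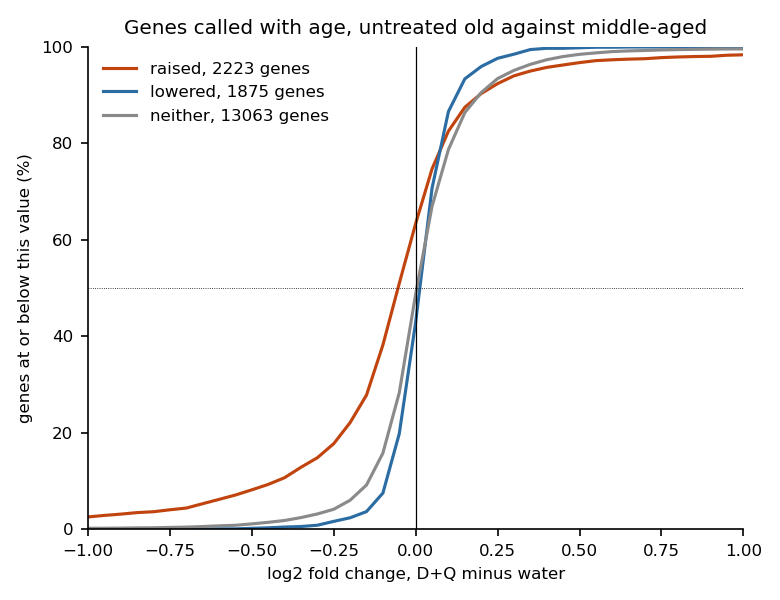
Cumulative share of genes, in percent, at or below each log2 fold change of D+Q minus water, for genes raised, lowered or neither between middle-aged and untreated old bladders. The curve of the 2223 raised genes lies to the left of the curve of the 13063 other genes, crossing 0 at 63.4% against 48.7%.

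Gene length bore a small relation to the fold changes. With the tested genes cut into 5 equal classes by exon length in the count table, the median log2 fold change was 0.02 in the shortest class (up to 2083 bases) and -0.02 in the longest (7105 bases and over). The same medians were 0.02 and -0.02 with D+Q against vehicle and 0.002 and -0.001 with vehicle against water. These shifts are of the size of the ribosome assembly and age medians above or smaller, and their part in those values was not tested.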

How the data were processed

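Per the labels and the study's methods, the authors sequenced total RNA of single bladders, depleted of ribosomal RNA, as paired-end reads from a stranded kit, aligned them to mm10 with STAR (version 2.7.3 in the submitters' processing notes) and summed them with Subread featureCounts. The deposited count table holds whole counts per gene with the exon length of each gene, as the authors' counter gave it, for 32285 genes, of which 127 have no symbol. Whether counting used strand, and how reads with several matches were treated, is not given in the sources used here. The second deposited table holds log2 values, which the authors made from count plus 1 divided by length, scaled to a linear sum of 100000 per bladder and therefore multiplied by 10 here to give TPM.

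Counts were tested with edgeR 4.0.16 in R 4.3.3 (quasi-likelihood test, TMM factors, filterByExpr, only the 2 groups compared, Benjamini-Hochberg adjustment over all genes tested, threshold 0.05). SE is the absolute log2 fold change divided by the square root of F. DESeq2 1.42.0, edgeR's likelihood ratio test, limma 3.58.1 on log2(TPM + 1) and log2(TPM + 0.1), other factors and filters, other sample sets and leaving out each bladder were alternatives. Library shares were compared by exact permutation tests in scipy 1.17.1, whose smallest two-sided p for 6 against 5 is 0.00433. The procedures were tested on simulated counts.

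Named genes were, per direction, the 10 of smallest unadjusted p, since none passed, without immunoglobulin segments and predicted models. For each of 33 gene lists they were the 2 of smallest p and the first listed gene. Cxcr5, Cxcl13, Syk, Pik3cd and Cdkn2a were added as genes the study names. Genes outside this rule, and 4 further lists, were chosen after their values were seen. The comparison, its members and the lists were all chosen with earlier results of these data known. Bladders of a group are separate animals as far as the labels and methods say, and no labels give a sequencing batch. Replicates of a group differed by more than sampling noise. Promoter sequences are from RefSeq (GRCm38.p6). Values of some list members are not reported here, though they count in their lists.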

Additional observations from a re-analysis of the deposited data

Results flagged for a closer look

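In 250 groups of 5 or 6 values (122 named genes and library measures, in the D+Q and the water bladders), 17 held 1 bladder that stood apart from the rest by Dixon's 95% limit, and chance marks about 1 in 20. D+Q replicate 6 stood apart in Hba-a1 (534.3 CPM, next 185), Hbb-bs (2068 CPM, next 510), Cdkn2a (2.16 CPM, next 1.40) and Isg15, an interferon-induced ubiquitin-like protein (11.87 CPM, next 5.49). D+Q replicate 1 stood apart in Ctla4 (3.39 CPM, next 1.56), Mki67 (19.15 CPM, next 13.2) and Cdh5, the endothelial cadherin (49.04 CPM, next 43.2). The other D+Q bladders of this kind were replicate 2 in Ciart (26.65 CPM), replicate 3 in mt-Atp6 (39.17 CPM) and replicate 5 in Cxcl13 (17.98 CPM).

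Among water bladders, replicate 1 stood apart in Hba-a1 (41.4 CPM, next 31.7), Ncr1, a receptor of NK cells (0.908 CPM), and Cfi, complement factor I (1.229 CPM), and it is the shallowest library. Replicate 2 stood apart in Cd3e, a chain of the T cell receptor complex (7.02 CPM), replicate 3 in Lypla1 (69.15 CPM), replicate 4 in Krt14 (4.889 CPM) and replicate 6 in Acta1, the skeletal muscle actin (398.8 CPM). All 17 were the highest value of their group.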

How the results depend on the processing

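The count of 0 genes between D+Q and water became 69 with DESeq2, 27 with edgeR's likelihood ratio test and 4 with all 4 groups at 26 months in 1 fit, and ranged from 0 to 3 when each bladder was left out (3 without water replicate 3). D+Q against vehicle had 11 with DESeq2. With the replicate number as a block there were 2 (both higher). The numbers do not pair the bladders: same-numbered D+Q and water bladders correlated from -0.158 to 0.147, and 1 of 5 pairs correlated best with its own number. Unadjusted calls ranged from 1053 to 1613 over the left-out bladders. Upper-quartile factors gave 880 higher and 487 lower genes in place of 794 and 548.

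The difference in ribosomal protein share ranged from -0.213 to 0.0106 percentage points and changed sign without D+Q replicate 1. The erythrocyte median was 1.42 without both D+Q replicate 6 and water replicate 2, an alternative chosen after seeing the data. Of the single genes' values, 2710 kept direction and side of the threshold, 39 passed it (19 with DESeq2) and 42 changed sign, and the cause was not tested.

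Under the replicate block Src was -0.00922, Krt5 -0.0968, Hspa1a 0.0527 and Mki67 0.0140. On log2(TPM + 1) Src was -0.0241, Krt5 -0.0253 and Hspa1a 0.00364, and on log2(TPM + 0.1) they were -0.0243, -0.0253 and 0.00525. Without the 2 bladders Src was -0.0312, Adgre1 0.00980, Upk1a -0.0190, Nr3c1 0.00810 and Mki67 0.284. Leaving out 1 bladder gave ranges across 0 for Src (-0.0187 to 0.0354), Nfe2l2 (-0.0437 to 0.0510), Ahr (-0.00220 to 0.101), Cd3e (-0.00371 to 0.265), Gzma (-0.432 to 0.0595), Kit (-0.0779 to 0.213), Isg15 (-0.00456 to 0.471), C1qa (-0.0706 to 0.00729), Upk1a (-0.0078 to 0.0878), Krt5 (-0.100 to 0.0917), Hspa1a (-0.138 to 0.203), Arntl (-0.0780 to 0.141), Mki67 (-0.293 to 0.277) and mt-Cytb (-0.00633 to 0.0735).

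With 5 or 6 bladders a group and a median SE of 0.08, small differences could not be resolved, and genes near the floor of 3 counts cannot be ranked.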
